A study of Homo sapiens with 26 samples.

Results

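The 384 genes described here are the protein-coding genes of human chromosome 10 whose FPKM (fragments per kilobase of gene, scaled to the size of the library, as the authors deposited it) averaged 2 or more over 26 RNA-seq libraries. They are 384 of the 729 protein-coding genes listed on the chromosome and of the 9670 protein-coding genes at that level in the whole table, which has 58735 genes. The members nearest the threshold were ANKRD22 at a mean of 2.03, ZNF37A at 2.04 and STOX1 at 2.06, and the nearest genes left out were PLEKHA1 at 1.96, CNNM2 at 1.95 and PANK1 at 1.93. Chromosome 10 was chosen by these same FPKM values, because its genes read low in one tetraploid clone, DLD1 large clone 2, and high in another, CAL51 large clone 2. Their levels in those clones are therefore a description and carry no test. Only RNA was measured, so "lost" or "gained" could not be checked as DNA copies, and the genes are called lower or higher.

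The study grew tetraploid (4N) clones of small or large cells and nuclei, each from a single cell, out of the near-diploid lines HCT116 and DLD1 (colorectal cancer) and CAL51 (triple-negative breast cancer). Cytokinesis failure was induced for 20 h, with dihydrocytochalasin at 1.5 µg/mL in DLD1 and with blebbistatin at 75 µM in HCT116 and CAL51. Single cells were cloned after washout and 48 h of recovery. Each line had 1 parental library and 2 libraries of 2N clones, which together form its 2N reference, and the labels do not say whether the 2N clones met the drug. HCT116 had 3 small and 3 large 4N clones, DLD1 had 3 small and 4 large, and CAL51 had 1 small and 3 large. Every 4N library is 1 clone grown from 1 cell, so whatever that founder carried is shared by all of its cells.

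Chromosome 10 carries genes of mitosis, growth control, metabolism and transcription that have nothing in common but their chromosome. A cell that gains or loses a whole chromosome alters the template of all its genes together, and RNA of many, though not all, genes tends to follow the number of copies. Cells that have doubled their genome often go on to lose and gain single chromosomes.

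The promoters of 3 members whose values depart from the rest of the chromosome are shown here, from RefSeq (GRCh38.p14), each ending just before the gene. BMI1 and PIP4K2A are neighbours among the members of 10p, and their levels followed each other in DLD1, while DDIT4 was low in both clones. BMI1 (chr10:22320849-22321098, plus strand) and PIP4K2A (chr10:22714579-22714828, minus strand) are read from 250 bases each, and DDIT4 (chr10:72273674-72273919, plus strand) from 246. Capitals mark GGGCGG (a GC box), CCAAT or TATAAA on either strand, where neighbouring matches may overlap.
BMI1: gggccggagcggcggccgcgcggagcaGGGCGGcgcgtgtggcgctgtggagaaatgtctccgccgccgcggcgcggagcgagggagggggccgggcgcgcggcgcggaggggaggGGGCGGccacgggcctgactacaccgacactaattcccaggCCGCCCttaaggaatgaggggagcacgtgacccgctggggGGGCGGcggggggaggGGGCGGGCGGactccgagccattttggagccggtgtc
PIP4K2A: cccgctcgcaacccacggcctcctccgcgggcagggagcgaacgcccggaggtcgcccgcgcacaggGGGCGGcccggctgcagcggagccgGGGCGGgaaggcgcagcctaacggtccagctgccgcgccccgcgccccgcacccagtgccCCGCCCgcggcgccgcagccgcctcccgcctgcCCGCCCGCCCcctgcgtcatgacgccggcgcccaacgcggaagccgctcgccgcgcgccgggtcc
DDIT4: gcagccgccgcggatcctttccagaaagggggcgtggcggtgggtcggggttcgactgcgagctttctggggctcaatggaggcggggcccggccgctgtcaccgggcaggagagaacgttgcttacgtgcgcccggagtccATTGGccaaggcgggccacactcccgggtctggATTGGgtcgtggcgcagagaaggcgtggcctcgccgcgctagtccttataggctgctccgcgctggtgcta
BMI1 held 6 GC boxes and PIP4K2A held 5, with no CCAAT or TATAAA, while DDIT4 held 2 CCAAT and neither of the others. Over the 325 members with a promoter in the table, GGGCGG was present in 67.1%, against 71.1% of the 7455 promoters of other-chromosome genes at the same FPKM threshold and 42.6% of all 35116 promoters of the table at the same length. CCAAT was present in 33.8%, against 35.4% and 32.0%, and TATAAA in 3.38%, against 4.63% and 10.7%. The members were thus close to other expressed genes. These are matches of letters, and no factor's binding was measured.

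The libraries held 23.5 to 44.5 M reads assigned to genes (median 32.5 M), and the members took 2.26% to 3.58% of them. EPCAM and KRT8 were expressed in all 3 lines, while CDH1, also epithelial, had a median of 0.73 FPKM in CAL51 against 106 in DLD1. CDX2, a colonic transcription factor, was at 38.5 to 81.8 FPKM in DLD1, at 4.28 to 8.02 in HCT116 and at no more than 1.18 in CAL51, while CDX1 stayed at or under 0.06 in every library and VIL1 was near 0 in HCT116. LGR5, from the same colonic list, went against the tissue labels, at up to 27.5 FPKM in CAL51 and at most 0.03 in HCT116. Of the markers of other cells, the leukocyte gene PTPRC did not exceed 0.48 FPKM in any library, but in CAL51 the mesenchymal genes COL3A1, PDGFRB and COL1A1 reached 29.9, 23.7 and 8.35. COL1A1 was not particular to CAL51, with a median of 4.20 FPKM in HCT116 and 0.91 in CAL51. KRT8 varied in CAL51 from 32.5 FPKM in large clone 2 to 1964 in large clone 1, and the part of such marker differences in the CAL51 values below was not tested. Members of CAL51 large clone 1 and HCT116 large clone 3 were also the most widely scattered around their 2N reference (SD over members 0.57 and 0.59 on the log2 scale, against 0.29 in DLD1 large clone 2 and 0.47 in CAL51 large clone 2).

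Every value called a difference below is log2(FPKM + 1) in a library minus the mean of the 3 2N libraries of its line. In DLD1 large clone 2 the members' median difference was -0.32 (quartiles -0.46 and -0.13), and 345 of 384 members were below 0. That median is a ratio of 0.80 in FPKM + 1, which lies nearer to 1 than the ratio in FPKM does. Genes of all other chromosomes had a median of -0.01 in the same library. The other 6 DLD1 4N clones had chromosome 10 medians from -0.01 to 0.03, so large clone 2 stood alone in its line. In CAL51 large clone 2 the median was 0.22 (quartiles 0.04 and 0.40), a ratio of 1.17 in FPKM + 1, with 303 members above 0 and a median of -0.02 elsewhere in the genome. The other CAL51 clones had -0.07 in large clone 1, -0.03 in large clone 3 and 0.08 in small clone 1. In HCT116 the 6 clones ran from -0.04 in small clone 1 to 0.10 in large clone 1. The 9 2N libraries lay within -0.02 and 0.02.

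**Figure D1:**
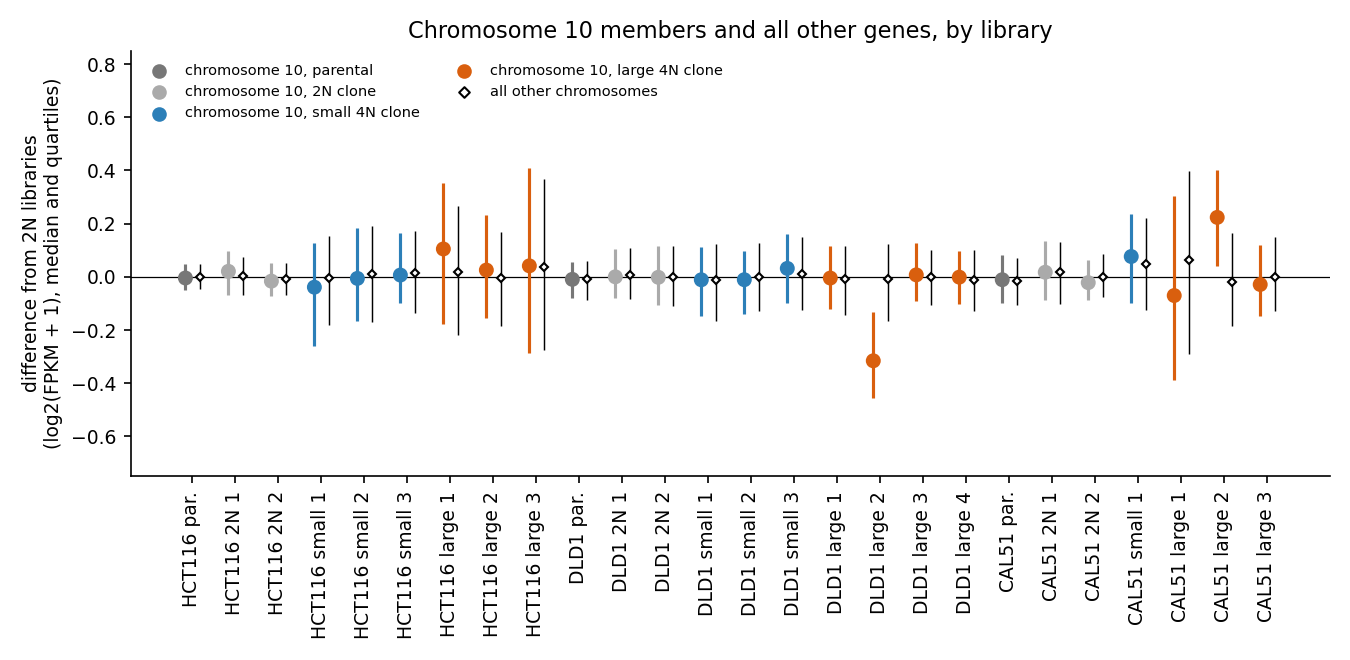
Median (point) and quartiles (line) of log2(FPKM + 1) minus the line's 2N mean, for the 384 chromosome 10 members (filled) and for genes of all other chromosomes (open diamonds), by library. DLD1 large clone 2 sits at -0.32 and CAL51 large clone 2 at 0.22, while the open diamonds of both stay at -0.01 and -0.02.

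Chromosome 10 was the lowest of 22 autosomes in DLD1 large clone 2, with chromosome 7 next at -0.28. Among the autosomes of CAL51 large clone 2 it ranked 21 from the lowest of 22, under chromosome 11 at 0.25. Chromosome 7 was as low in DLD1 large clone 4 (-0.28), in which chromosome 10 was at -0.00, and chromosome 11 was at 0.20 in CAL51 large clone 1, in which chromosome 10 was at -0.07. Neither of these chromosomes was therefore shifted in the chromosome 10 clones alone.

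Both arms took part. The 87 members of 10p (up to 40 Mb) had a median of -0.26 and the 297 of 10q one of -0.33 in DLD1 large clone 2, and the corresponding medians in CAL51 large clone 2 were 0.25 and 0.21. Cut into 14 windows of 10 Mb, the chromosome was below 0 in all 14 in DLD1 large clone 2, from -0.44 in the window that starts at 80 Mb to -0.18 in the one at 20 Mb. Of 242 windows on other autosomes, 6.20% were at or under -0.18 in that library. All 14 windows were above 0 in CAL51 large clone 2, from 0.12 at 60 Mb to 0.29 at 30 Mb, and 7.02% of the other windows were at or over 0.12. No window stood at 0 in either clone, so no boundary between a shifted and an unshifted stretch was visible at this width.

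**Figure D2:**
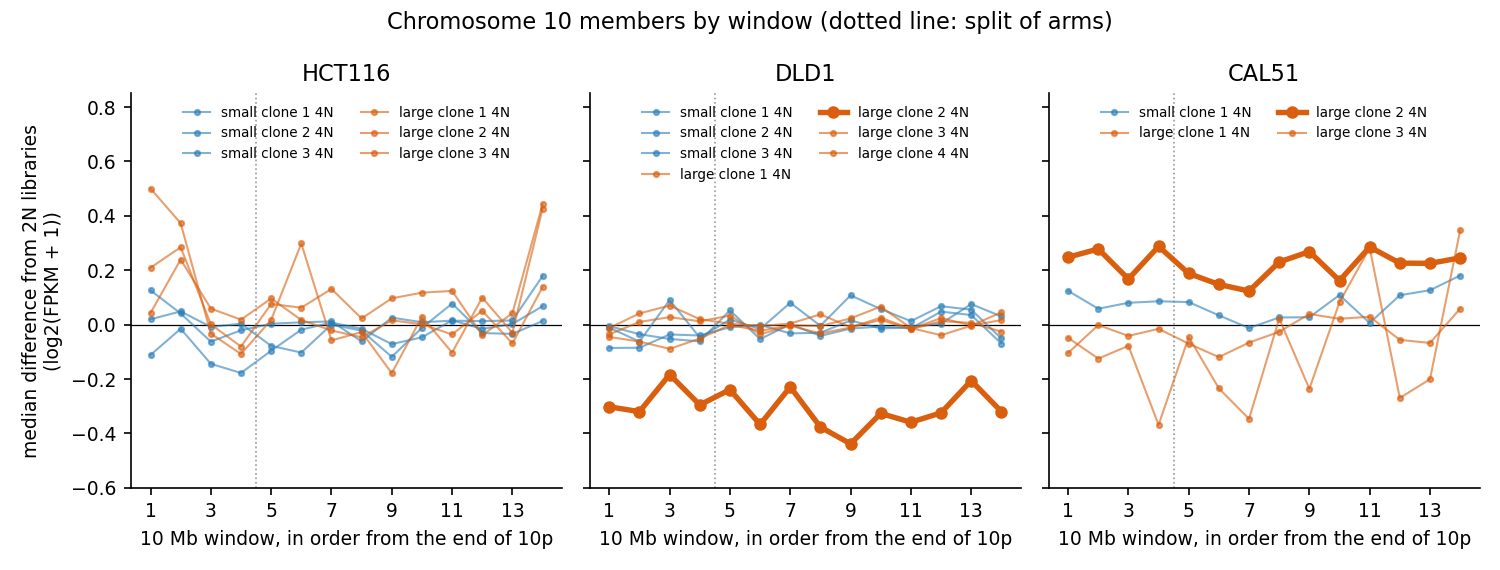
Median difference from 2N (log2(FPKM + 1)) of the members in each of 14 consecutive windows of 10 Mb, in order along the chromosome, for each 4N clone (blue small, orange large, thick for DLD1 large clone 2 and CAL51 large clone 2). The thick lines stay on one side of 0 throughout, between -0.44 and -0.18 in DLD1 and between 0.12 and 0.29 in CAL51.

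HCT116 had no clone with a shift of the whole chromosome, but large clones 1 and 3 were high near the start of 10p. The 50 members in the first 20 Mb had medians of 0.27, 0.12 and 0.42 in large clones 1, 2 and 3, against 0.07, 0.01 and 0.00 for the remaining 334. Small clones 1, 2 and 3 had -0.09, 0.03 and 0.11 over the same 50 members, so large clone 2 was close to small clone 3. In the first 10 Mb large clone 2 was at 0.04 and small clone 3 at 0.13, and in the next window they were at 0.24 and 0.04. In large clones 1, 2 and 3, 36, 29 and 35 of the 50 members were above all 3 2N libraries, where genes of other chromosomes gave 42.5%, 35.9% and 45.9%. In small clones 1, 2 and 3 the counts were 9, 24 and 25, beside 34.3%, 38.7% and 37.6%. The stretch was chosen after its values were seen and was not tested. The last window, from 130 Mb, had only 10 members and medians of 0.44, 0.14 and 0.43 in the large clones. In CAL51 large clone 1 the windows ranged from -0.37 to 0.35, and there the members' difference had a Pearson r of -0.37 with log2 gene length (384 members of 1 library, and -0.33 on other chromosomes). The part of gene length in that library's windows was not tested.

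Counted gene by gene, 290 members (75.5%) were below all 3 DLD1 2N libraries in large clone 2, where 30.0% of genes of other chromosomes were, and 14 were above all 3 (26.6% elsewhere). Of the members in CAL51 large clone 2, 235 (61.2%) were above all 3 2N libraries, where 28.1% of genes elsewhere were, and 43 were below all 3 (33.0% elsewhere). Against the whole line, DLD1 large clone 2 was the lowest of 10 libraries for 240 members (62.5%; 13.2% elsewhere), and CAL51 large clone 2 the highest of 7 for 163 (42.4%; 14.0% elsewhere). There were 185 members (48.2%; 8.31% elsewhere) that were both below in the DLD1 clone and above in the CAL51 clone. A further 105 (27.3%; 21.7% elsewhere) were below in the DLD1 clone without being above in the CAL51 clone, and 50 (13.02%; 19.8% elsewhere) were above in the CAL51 clone without being below in the DLD1 clone. The remaining 44 (11.5%; 50.2% elsewhere) were neither. Since the chromosome was chosen for these directions, nothing is read from the counts.

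The size of the difference did not carry over from gene to gene. Over the 384 members the differences in the 2 clones had a Pearson r of 0.08 and a Spearman rho of 0.00 (0.07 for Pearson r on other chromosomes), as a description over genes of 2 libraries. In DLD1 large clone 2 the difference grew with the level of the gene in the 2N cells: the median was -0.03 for the 43 members under 2 FPKM, -0.23 from 2 to 5, -0.30 from 5 to 10, -0.35 from 10 to 20, -0.37 from 20 to 50 and -0.44 for the 28 members at 50 or more. Genes of other chromosomes drifted the same way in this library, from 0.04 at 2 to 5 FPKM to -0.08 at 50 or more. In CAL51 large clone 2 it was 0.02 for the 33 members under 2 FPKM, 0.25, 0.20, 0.22 and 0.27 in the next 4 classes, and 0.33 for the 24 members at 50 or more. The added 1 in log2(FPKM + 1) shrinks the differences of low genes. For scale only, a ratio of 3 to 4 is -0.42 and one of 5 to 4 is 0.32 on a log2 scale without the added 1. No DNA was measured, and whether either clone held such a ratio of copies was not tested.

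**Figure D3:**
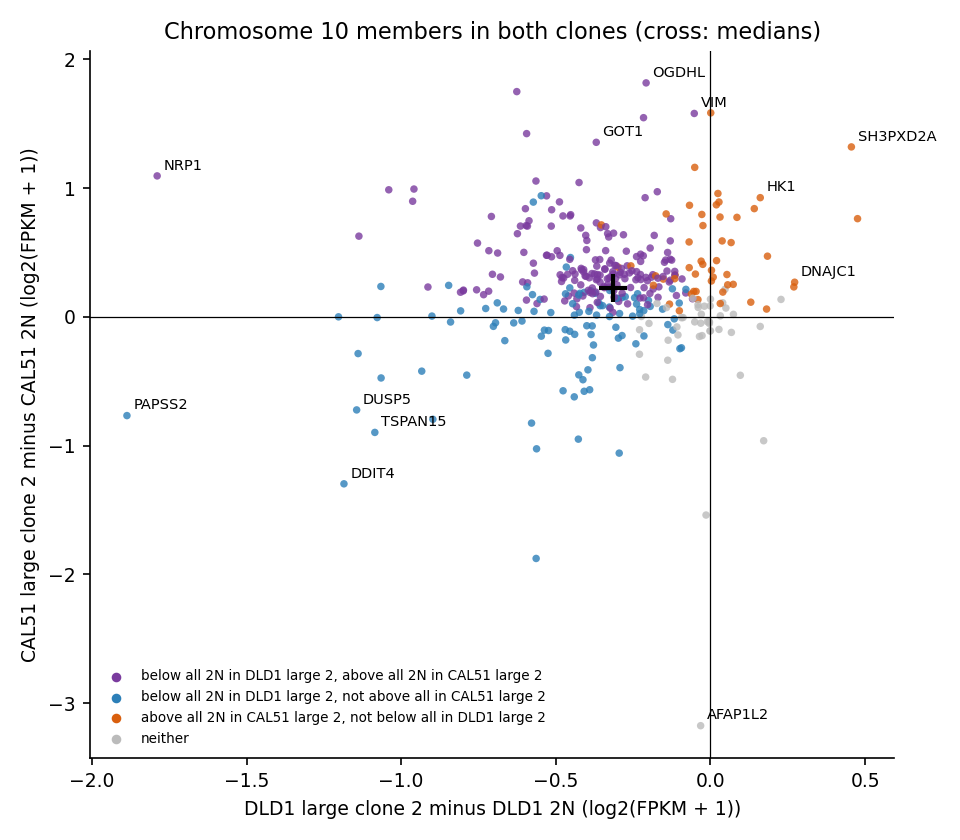
Each point is 1 of the 384 members, with its difference from 2N (log2(FPKM + 1)) in DLD1 large clone 2 on the horizontal axis and in CAL51 large clone 2 on the vertical axis, coloured by whether it lies beyond all 3 2N libraries. Most points fall left of and above 0 around the medians of -0.32 and 0.22, with no slope among them (r 0.08), and DDIT4 and PAPSS2 lie low on both axes.

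Of 21 listed genes of tumour suppression and survival signalling, 19 were members, with a median of -0.30 in DLD1 large clone 2 (16 below all 3 2N libraries) and 0.18 in CAL51 large clone 2 (12 above). Over all 384 members the medians were -0.32 and 0.22, with 290 (75.5%) below in the DLD1 clone and 235 (61.2%) above in the CAL51 clone. The counts of this list and of those that follow stand beside these shares. No list was tested against them, so nothing is read from the counts about its function. NFKB2, a subunit of NF-kappa-B, differed by -0.69 and -0.05 in the DLD1 and CAL51 clones, and TCF7L2, the transcription factor of Wnt signalling, by -0.53 and 0.48.

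DDIT4, a stress-induced inhibitor of mTORC1 whose promoter is shown above, was below the 2N libraries in both clones. It was at 4.91, 10.3 and 10.6 FPKM in the DLD1 2N libraries and at 14.3, 3.03, 11.9 and 7.32 in the large clones. In CAL51 it was at 50.4, 48.1 and 38.7 in the 2N libraries, 18.9 in the small clone and 34.7, 17.9 and 15.1 in the large clones. The differences in the 2 clones were -1.18 and -1.30, although in CAL51 the other 4N clones were below the 2N libraries too. In all, 27 members (7.03%; 10.3% elsewhere) were below every 2N library in both clones and 10 (2.604%; 8.01% elsewhere) were above in both. FGFR2, a growth factor receptor, was one of those that fell short of the 2N libraries in both, at 0.41 FPKM in DLD1 large clone 2 (2N 0.77, 0.94 and 0.92) and 21.2 in CAL51 large clone 2 (2N 26.2, 46.2 and 27.5).

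The 26 members of the cell division list (31 listed) had medians of -0.31 and 0.24, with 21 below the 2N libraries in DLD1 large clone 2 and 20 above them in CAL51 large clone 2. KIF11, the mitotic kinesin that separates spindle poles, was at 34.5, 28.2 and 25.5 FPKM in the DLD1 2N libraries and 25.005 in large clone 2, against 30.1, 28.5 and 29.5 in the other large clones. In CAL51 it was at 33.6, 30.9 and 29.9 in the 2N libraries and 36.9 in large clone 2, while large clone 1 had 13.8. CDK1, the kinase of mitotic entry, was at 31.3, 32.0 and 27.9 in the DLD1 2N libraries and 25.7 in large clone 2. Its level in CAL51 large clone 2 was 32.4, inside its 2N range of 28.6 to 33.3. MKI67, the proliferation marker, was at 29.0 in DLD1 large clone 2, where the other large clones had 44.9, 42.9 and 46.4. That value lies inside the DLD1 2N range of 26.9 to 43.7, so MKI67 was low against the 4N clones and not against the 2N libraries.

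Cytoskeleton and adhesion genes gave 19 members (28 listed), which had medians of -0.37 and 0.29, with 14 below and 14 above. PDLIM1, a cytoskeletal adaptor, was at 54.7, 71.5 and 59.1 FPKM in the DLD1 2N libraries and 29.3 in large clone 2. In CAL51 it was at 65.6, 61.1 and 95.03 and at 145 in large clone 2, so it lay outside the 2N range on opposite sides. ITGB1, the beta-1 integrin subunit, was at 27.0 in DLD1 large clone 2 (2N 36.2, 38.6 and 58.9) and at 96.4 in CAL51 large clone 2 (2N 99.9, 82.8 and 95.3), where it did not leave the 2N range. VIM, the intermediate filament of mesenchymal cells, did not exceed 0.06 FPKM in any DLD1 library. In CAL51 VIM was at 13.7, 7.34 and 15.7 in the 2N libraries, 28.2 in the small clone and 6.53, 36.9 and 26.1 in the large clones. Its difference of 1.58 in large clone 2 was the fourth highest of the members expressed in CAL51, yet the small clone and large clone 3 were above the 2N libraries as well. NRP1, a receptor for semaphorins and VEGF, was at 1.39 in DLD1 large clone 2 (2N 4.87, 8.93 and 8.62) and at 38.3 in CAL51 large clone 2 (2N 20.5, 17.1 and 15.1). Small clones 2 and 3 of DLD1 were also low for NRP1, at 2.40 and 2.33, and CAL51 large clone 3 was also high, at 32.5.

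The list of central carbon, lipid and redox metabolism gave 39 members of 49, with medians of -0.33 and 0.40, of which 33 were below and 24 above. PGAM1, a glycolytic enzyme, was at 259, 292 and 199.9 FPKM in the DLD1 2N libraries and 161 in large clone 2, and at 167, 199 and 174 in the CAL51 2N libraries and 293 in large clone 2. PSAP, the precursor of the saposins of the lysosome, was at 59.9 in DLD1 large clone 2 (2N 92.3, 117 and 136). Its level of 229 in CAL51 large clone 2 was only just above the 2N libraries (224, 161 and 206). PAPSS2, which makes the donor for sulfation, had the lowest difference of all in DLD1 large clone 2 (-1.89), at 8.97 FPKM against 33.8, 28.7 and 47.5, and was also low in CAL51 large clone 2, at 3.04 against 10.7, 1.61 and 9.57. The CAL51 value is within its wide 2N range. SCD, the stearoyl-CoA desaturase, was at 38.3 in DLD1 large clone 2 (2N 65.9, 60.4 and 135), but small clone 3 was as low, at 38.6.

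Several metabolic members lay well past the chromosome's median in CAL51 large clone 2. GOT1, an aspartate aminotransferase, was at 43.1 FPKM there, against 15.9, 16.1 and 16.7 in the 2N libraries, 15.2 in the small clone and 21.6 and 16.6 in the other large clones. OGDHL, a relative of the 2-oxoglutarate dehydrogenase subunit, was at 27.2, against 7.94, 4.97 and 8.65 in 2N, 8.22 in the small clone and 7.75 and 5.91 in the other large clones. ACADSB, an acyl-CoA dehydrogenase, was at 15.9 and no other CAL51 library exceeded 6.73. HK1, a hexokinase, was at 30.5 and no other exceeded 17.6. For these 4 genes the clone did not overlap any other CAL51 library, and their differences of 0.93 to 1.82 exceeded the upper quartile of the members (0.40). GOT1, OGDHL and ACADSB were named for being among the 8 highest members in this clone, so for them passing the quartile follows from the choice. The clone was also the highest CAL51 library for 42.4% of all members. HK1 was among the 8 members highest in DLD1 large clone 2 as well (0.16), at 10.1 FPKM inside its 2N range of 6.21 to 10.8. In the opposite direction AKR1C1, a ketosteroid reductase, was at 3.97 in CAL51 large clone 2 (2N 12.001, 9.53 and 21.0), and AFAP1L2, an actin-associated adaptor, was listed at 0 there, with 9.68, 18.7 and 2.49 in 2N and 34.2 in the small clone.

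The 45 members that serve protein synthesis, folding and transport (50 listed) had medians of -0.36 and 0.19, with 39 below and 27 above. TIMM23, a channel of the mitochondrial inner membrane, was at 61.0 FPKM in DLD1 large clone 2, and the other 9 DLD1 libraries lay between 76.4 and 90.9. In CAL51 large clone 2 it was at 94.9 (2N 69.1, 82.5 and 74.4), under large clone 1 at 116. EIF3A, a subunit of an initiation factor, was at 60.1 in DLD1 large clone 2, with the 2N libraries at 83.4, 79.9 and 90.9, and at 73.4 in CAL51 large clone 2, with 57.7, 63.1 and 54.5. GDI2, which recycles Rab GTPases, was at 61.2 in the DLD1 clone (2N 86.6, 81.8 and 85.5) and 90.2 in the CAL51 clone (2N 71.1, 75.8 and 68.0). All 3 were on opposite sides of the 2N range in the 2 clones.

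Of 46 listed genes of chromatin and gene regulation 30 were members, with medians of -0.29 and 0.19, 22 below and 19 above. HNRNPF, an RNA-binding splicing regulator, was at 146 FPKM in DLD1 large clone 2 (2N 186, 179.9 and 208) and at 119 in CAL51 large clone 2, barely above the 2N libraries (116, 116 and 109). BMI1, a component of Polycomb repressive complex 1, did not follow the chromosome in DLD1. It was at 25.3 in large clone 2, inside a 2N range of 12.4 to 42.8. The remaining 208 members are in none of the 6 lists.

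A pattern of its own appeared around BMI1 in DLD1, and was followed up after its values were seen. DNAJC1 (a chaperone of the endoplasmic reticulum), COMMD3, BMI1 and PIP4K2A (a phosphatidylinositol phosphate kinase) are consecutive among the members on 10p, from chr10:21756537 to 22714555. Genes that are not members may lie between them. BMI1 was at 12.4 FPKM in the DLD1 parental library, 42.8 and 25.7 in the 2N clones, 7.75, 14.96 and 10.8 in the small clones and 14.5, 25.3, 49.6 and 50.5 in the large clones. DNAJC1 was at 9.94, then 32.2 and 17.8, then 10.1, 15.6 and 14.8, then 14.9, 21.9, 31.8 and 39.0 in the same order. The 2N clones were above their own parental library for both genes, so the spread was not confined to 4N clones. Over the 10 DLD1 libraries the log2 levels of these 4 genes had Pearson r from 0.89 to 0.98 with each other, as a description over libraries. With MLLT10, the next member on the other side of DNAJC1, the r was between -0.61 and -0.51. DNAJC1 with COMMD3 (r 0.96) and COMMD3 with BMI1 (r 0.98) were the only 2 of 383 adjacent member pairs at or above the former value in DLD1 (0.522%), against 0.0756% of adjacent pairs elsewhere. The bar was the r of the first pair itself, which therefore passes by definition, so nothing is read from these 2 shares. The median r of adjacent pairs was 0.35 on chromosome 10 and 0.16 elsewhere. In HCT116 the r for the 6 pairs of these genes were 0.34 to 0.83 over 9 libraries, and in CAL51 they ran from -0.68 to 0.74 over 7. COMMD3 and BMI1 are annotated as one read-through gene too, so their reads cannot be fully told apart.

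**Figure D4:**
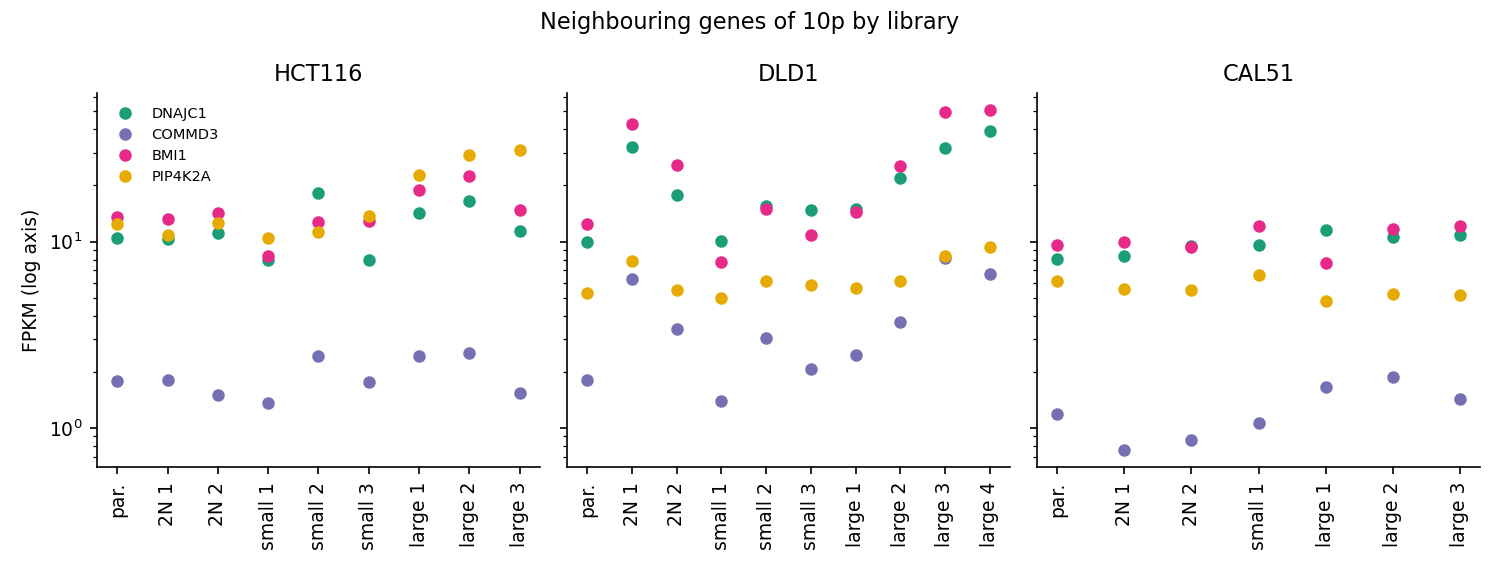
FPKM (log axis) of DNAJC1, COMMD3, BMI1 and PIP4K2A in each library of HCT116, DLD1 and CAL51. In DLD1 the 4 genes are high together in 2N clone 1 and in large clones 3 and 4, where BMI1 is at 42.8, 49.6 and 50.5; in HCT116 PIP4K2A is highest in the large clones.

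The genes closest to the chromosome-wide pattern were found from the Pearson r between a member's difference and the chromosome 10 median over the 17 4N clones. SEPHS1 (selenophosphate synthetase family, r 0.85), NCOA4 (the ferritin receptor of autophagy, 0.85), PARG (poly(ADP-ribose) glycohydrolase, 0.80), GDI2 (0.80) and PPP2R2D (a regulatory subunit of protein phosphatase 2A, 0.80) led, where the median over members was 0.39. Without the 2 clones that chose the chromosome, over 15 clones, r was 0.53, 0.75, 0.80, 0.63 and 0.31. For SEPHS1 and PPP2R2D the likeness thus rested largely on those clones. SEPHS1 was at 16.99 FPKM in DLD1 large clone 2, and the other 9 DLD1 libraries lay between 21.6 and 27.5. SEPHS1 was at 50.3 in CAL51 large clone 2, and no other CAL51 library exceeded 39.9.

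The study's own contrast, large against small 4N clones, was tested with limma on log2(FPKM + 1) over 14835 genes, with Benjamini-Hochberg adjusted p under 0.05 as the threshold. DLD1 large clone 2 and CAL51 large clone 2 are in the large classes of these fits. In HCT116 PIP4K2A was the 1 member past the threshold, where 0.445% of all genes tested passed. It was at 10.5, 11.3 and 13.6 FPKM in the small clones, 22.6, 29.1 and 31.1 in the large clones and 12.5, 10.8 and 12.5 in the 2N libraries. The large clones lay above all other HCT116 libraries, by 1.16 on the log2 scale against the small clones (SE 0.17, limma adjusted p = 0.00505). HCT116 large clone 2 stands apart in this contrast. Without it 24 members passed, 18 higher and 6 lower in the large clones, where 6.98% of all genes did. Without small clone 2 the count was 4, or 1.04% of members and of all genes alike.

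In DLD1 CCDC3, a secreted coiled-coil protein, was the 1 member past the threshold, where 0.472% of all genes passed. It was at 1.08, 4.81 and 1.27 FPKM in the small clones and 7.19, 7.16, 10.1 and 5.36 in the large clones, which did not overlap. The 2N libraries were at 8.85, 6.13 and 7.24, so every small clone was below the 2N range. The large clones, from 5.36 to 10.1, spanned that range and reached past it at both ends. The difference was 1.46 (SE 0.28, limma adjusted p = 0.0185). It missed the threshold without small clone 1, small clone 3 or large clone 3 (adjusted p from 0.0714 to 0.151), with no filter on low values (0.054), with the replicate block (0.0699) and with DLD1 fitted alone (0.241). BMI1 was 1.44 higher in the large clones (SE 0.34) with a limma adjusted p of 0.0743, past no threshold. Over all 384 members the median of large minus small was -0.07 in DLD1, and -0.00 without large clone 2.

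In CAL51, with its single small clone, 3 members passed, where 1.52% of all genes did. The small clone had 2.34 FPKM of FAM171A1, a membrane protein, while the large clones had 16.5, 29.4 and 15.02 and the 2N libraries 11.3, 11.5 and 22.3. It was 2.61 higher in the large clones (SE 0.61, limma adjusted p = 0.0359), and missed the threshold in 7 of 11 alternatives, among them without large clone 2 (0.0779) and with no filter on low values (0.0535). MAP3K8, a kinase upstream of ERK signalling, stood at 13.2 in the small clone, 6.24, 4.12 and 3.56 in the large clones and 11.1, 12.3 and 6.497 in 2N. It was lower in the large clones, at -1.36 (SE 0.28, limma adjusted p = 0.0176). BICC1, an RNA-binding protein, stood at 33.1 in the lone small clone and 15.5, 20.5 and 15.8 in the large clones (-0.91, SE 0.18, limma adjusted p = 0.0117). Its 2N libraries, at 15.3, 24.4 and 18.2, overlapped the large clones, and the small clone was above them. The spread of the lone small clone is taken from the other groups of the fit. BICC1 missed the threshold in 5 alternatives and stayed past it in 6, while MAP3K8 missed it in 3 and stayed past it in 7. Leaving out large clone 1, 2 or 3 gave counts of 9, 5 and 7, where 2.89%, 1.58% and 2.47% of all genes passed, and with voom on the recovered reads MAP3K8 was the 1 member to pass.

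Averaged over the 3 lines with equal weight, 2 members passed, where 0.398% of all genes did. FBXW4, an F-box protein placed here among tumour suppressors and survival signalling, was lower in the large clones, at -0.42 (SE 0.09, limma adjusted p = 0.0402). Its small clones were at 11.4, 10.4 and 7.72 FPKM in HCT116 and its large clones at 6.46, 7.24 and 5.90. The corresponding levels were 5.54, 5.59 and 6.13 against 4.21, 4.33, 3.62 and 3.85 in DLD1, and 12.2 against 9.34, 10.9 and 8.59 in CAL51. Small and large clones did not overlap in any of the 3 lines, with differences of -0.51, -0.43 and -0.32, none of them past the threshold alone. FAM171A1 was 1.55 higher (SE 0.28, limma adjusted p = 0.0203), with 0.81 in HCT116 and 1.23 in DLD1. Without HCT116 large clone 1 neither passed (0.0756 for FBXW4 and 0.0523 for FAM171A1), and without CAL51 large clone 2 the count was 5. FBXW4 also missed it without most other single clones of HCT116 or DLD1 (adjusted p from 0.0505 to 0.0886) and both missed it with voom (0.091 and 0.0932). In the 6 lists, MAP3K8 and FBXW4 were the only genes past it in any of the 4 contrasts.

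**Figure D5:**
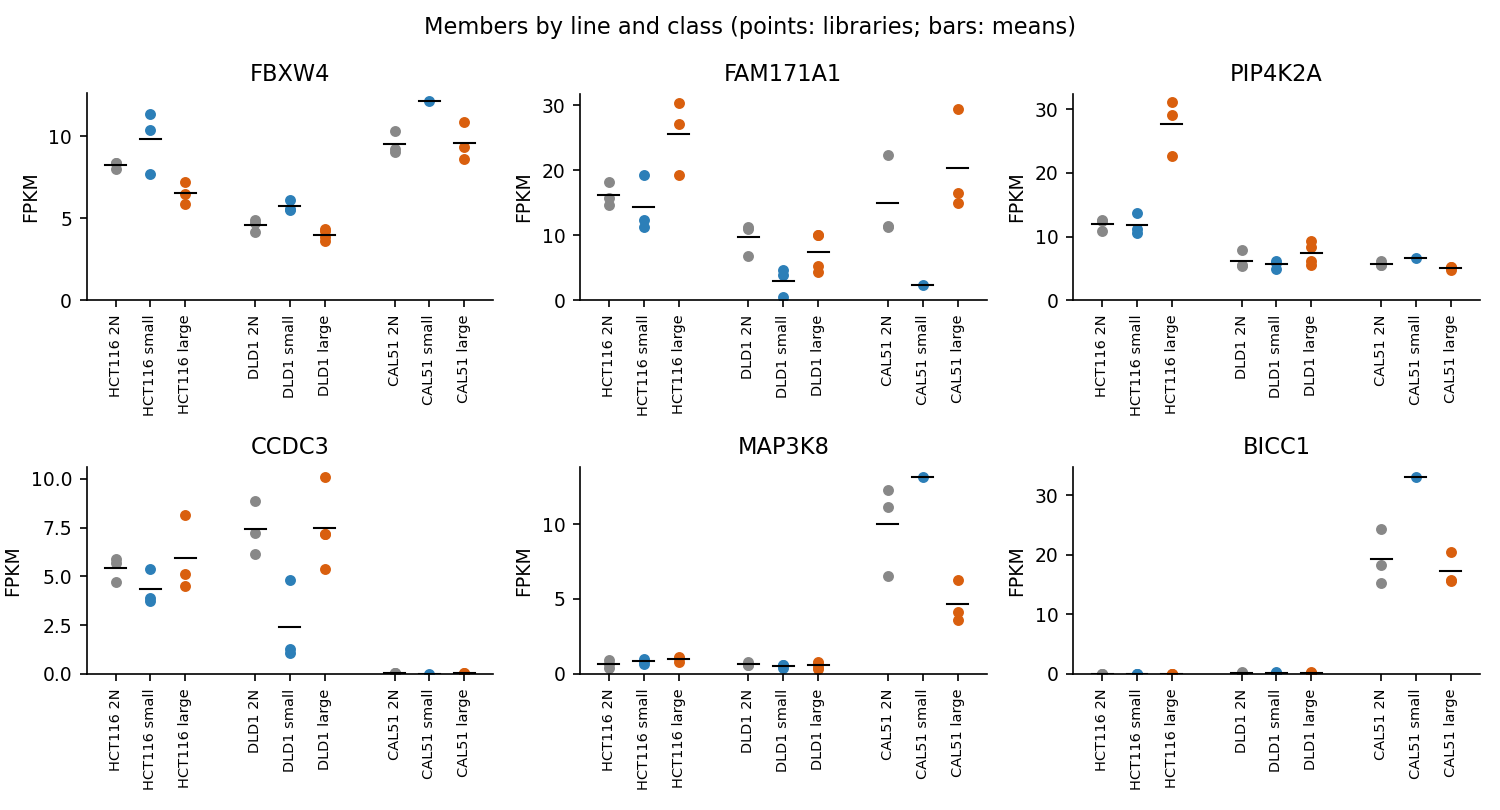
FPKM of 6 members in each library (points) and group mean (bar), by line and class (2N, small 4N, large 4N). FBXW4 is lower in the large than in the small clones of all 3 lines, PIP4K2A reaches 22.6 to 31.1 in HCT116 large clones alone, and the DLD1 small clones are low for CCDC3.

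The lines were compared through the difference between their contrasts. PIP4K2A, ANXA11, MAP3K8, BICC1 and MORN4 passed for CAL51 against HCT116, 5 members where 1.54% of all genes tested did. No member passed between DLD1 and HCT116, where 0.155% of all genes did, or between CAL51 and DLD1, where 0.667% did (limma; 39 and 34 members at an unadjusted p under 0.05). Counts of members at an unadjusted p, here and below, are given without the share of all genes, so nothing is read from them. ANXA11 and MORN4 were named after their values were seen. MAP3K8 did not exceed 1.09 FPKM, and BICC1 did not exceed 0.01, in any HCT116 4N clone. For these 2 genes the term therefore restates the CAL51 difference, and whether the lines respond differently cannot be read from it.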

How the data were processed

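RNA-seq of poly(A) RNA was analysed from the authors' table of FPKM per gene, made on GRCh38 with fastp, HISAT2 2.0.5 and featureCounts 1.5.0-p3 per the submitters' processing notes; the exact FPKM formula is not given in the sources used here. Multiplied by gene length, the deposited FPKM values gave whole reads in every library (100% of values within 0.05), which served the voom alternative. All values were compared as log2(FPKM + 1). limma 3.58.1 (R 4.3.3) was fitted with 12 line-by-class means to all 26 libraries, with an intensity trend and 14 residual degrees of freedom, over the 14835 genes at 1 FPKM or more in at least 3 libraries. Each clone is 1 library, so p-values measure the spread between clones. The script was tested on simulated data. Tables were handled in Python 3.11.15.

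The members, the gene lists and the contrasts were chosen with earlier results of these data known. Named genes were the 8 lowest and 8 highest members in each of the 2 clones (mean of 2 FPKM in that line), members past the threshold in each contrast (up to 5 a direction), the 5 most abundant members of each list, KIF11, MKI67, FGFR2, VIM and ITGB1, and the 5 most like the chromosome median; COMMD3, MLLT10, ANXA11 and MORN4 were added after their values were seen. Some genes that the rule names are not reported here. Alternatives were another pseudocount, other filters, voom, centring, single-line fits, a replicate block and leaving out libraries. Whether counting used strand is not given in the sources used here, so antisense neighbours may share reads.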

Additional observations from a re-analysis of the deposited data

Results flagged for a closer look

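Among the 4 DLD1 large clones, large clone 2 was far below the others for the chromosome 10 median (the gap to the next clone was 0.963 of the whole range). The same clone was the isolated low one for TIMM23 (0.938), GDI2 (0.905), PPP2R2D (0.866), FGFR2 (0.850), FAM107B (0.835) and MKI67 (0.834). AKR1C1 was isolated in large clone 4 (0.864), on the high side, at 0.06 FPKM. Chance isolates a sample in about 1 in 20 groups. Over all members 53 of 384 (13.8%) had an isolated DLD1 large clone, and in 42 (10.9%) it was large clone 2 on the low side, against 5.87% and 1.11% of genes elsewhere; since this clone chose the chromosome, the excess is a description.

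The large minus small contrast passed a test of the difference between CAL51 and HCT116 for 5 members (an interaction term in limma). PIP4K2A differed by -1.50 (adjusted p = 0.0197), ANXA11 by -1.49 (adjusted p = 0.0419), MAP3K8 by -1.47 (adjusted p = 0.0422), BICC1 by -0.91 (adjusted p = 0.0434) and MORN4 by 1.56 (adjusted p = 0.0357). MAP3K8 and BICC1 are low in the HCT116 4N clones (at most 1.09 and 0.01 FPKM), so their values restate the CAL51 contrast. ANXA11 was at 22.7, 21.8 and 29.1 FPKM in the HCT116 small clones and 40.4, 32.1 and 40.7 in the large ones, and at 88.5 in the CAL51 small clone and 49.3, 54.9 and 39.1 in the large ones. MORN4 went the opposite way, at 2.25, 2.53 and 3.13 against 1.58, 2.19 and 0.85 in HCT116, and at 1.46 against 3.81, 4.54 and 3.66 in CAL51. The count was 0 without HCT116 small clone 1 (limma; 65 members at an unadjusted p under 0.05), 18 without HCT116 large clone 2 and 12 without CAL51 large clone 1, where 0.566%, 5.29% and 4.11% of all genes passed.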

How the results depend on the processing

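The medians of DLD1 large clone 2 and CAL51 large clone 2 each held under all 7 alternatives run. These were pseudocount 0.1, other filters on the mean, centring, and each 2N library left out. Their counts below and above the 2N libraries respectively each held under all 6 alternatives, which were the same without the pseudocount. A median counted as held when it kept its sign and moved by less than the SD of the medians of its class, 0.16 in both. That SD includes the clone itself, so the criterion was wide. A count was held when it stayed within a fixed fold range. The 14 members above all 2N libraries in DLD1 large clone 2 became 9 at a mean FPKM of 5 or more and 28 without the parental library, and the 43 below in CAL51 large clone 2 became 28 at a mean FPKM of 5 or more. Of 106 recomputed single-gene contrasts, none changed direction, 68 stayed past the threshold and 38 did not; PIP4K2A in HCT116 missed it only when HCT116 was fitted alone (limma adjusted p = 0.189). The number of members past the threshold was less stable, and the cause was not tested. The share of all genes that passed is given above for some of these settings only. No change in a count, here or with the replicate block, is therefore read as particular to the members. In HCT116 it was 2 with libraries centred on their median, 0 in the fit of that line alone (48 members at an unadjusted limma p under 0.05), 2 without both large clones 2 (an alternative added after seeing the data), and 1 to 24 when each clone in turn was left out. Leaving out DLD1 large clone 2 or CAL51 large clone 2 gave 2 in HCT116, and leaving out CAL51 large clone 1 gave 4. In DLD1 it was 0 with no filter, 0 at a mean FPKM of 5 or more, 0 with the line alone (17, 12 and 38 members at an unadjusted limma p under 0.05), 2 without HCT116 large clone 3, and 0 to 3 with each clone left out. In CAL51 it was 1 with pseudocount 0.1, 1 at a mean FPKM of 5 or more, 1 with voom, 0 with the line alone (20 members unadjusted, limma), 7 without both large clones 2, and 5 to 9 with each large clone left out; the small clone, alone in its class, could not be left out. For the mean of the lines it was 1 with pseudocount 0.1, 1 at a mean FPKM of 5 or more, 0 with voom (31 members unadjusted, limma), 4 without both large clones 2, and 0 to 5 with each clone left out (4 without CAL51 large clone 1).

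The labels give same-numbered small and large clones no link beyond the number, and whether the number marks a shared batch was not tested. After class means were removed, same-numbered clones had correlations of 0.03, 0.16 and 0.16 in HCT116 and 0.00, 0.09 and -0.06 in DLD1. With the replicate block DLD1 had 0 members past the threshold (20 at an unadjusted limma p under 0.05), the mean of the lines 1, HCT116 1 and CAL51 2. In HCT116 each small clone correlated best with the large clone of its own number, and in DLD1 only clone 2 did.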
